A study of Mus musculus with 4 samples.

Results

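The type I interferon response genes described here are 43 mouse genes. They were chosen by name: every array probe that carries one of the 43 names, in its older or current form, was taken, which gave 63 of the 39429 probes. The rule reads names and no measured value, but the list of names was drawn up with earlier results of these data known. All 43 genes had a probe, and 38 had a probe bright enough to be tested, out of 15961 tested genes in all. RNA was measured in B cells that had been isolated from mouse spleen with magnetic beads and activated in culture through the B cell receptor (anti-IgM) and CD40 (anti-CD40), each antibody at 10 µg/mL, for 3 days. The labels name no interferon, virus or nucleic acid among the culture additions. The Ackr4ko cells came from male mice deficient for Ackr4, an atypical chemokine receptor that takes up chemokines without G protein signalling, and the WT cells from male C57BL/6 mice. There were 2 experiments, on different donors, and each gave 1 array per genotype. Donors were 71 days old (Ackr4ko) and 74 days old (WT) in experiment 2, and 73 and 77 days old in experiment 1. The labels do not give the number of mice behind an array.

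Type I interferons bind a receptor made of IFNAR1 and IFNAR2, which activates the kinases JAK1 and TYK2. A transcription factor complex that contains STAT2 and IRF9 then binds interferon-stimulated response elements in the promoters of antiviral genes. The induced proteins sense viral nucleic acid (RIG-I, MDA5, the 2'-5' oligoadenylate synthetases), block translation or entry of viruses (IFIT and Mx proteins, PKR), attach the ubiquitin-like ISG15 to other proteins, or attack the membranes around intracellular pathogens (guanylate-binding proteins and IRG GTPases). Most nucleated cells, B cells among them, keep a basal level of this programme. Several of its genes, the GTPases above all, also respond to interferon gamma.

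The genotype labels of the scanner files and of the authors' value table are exchanged within each experiment. Every column of that table correlated at 0.998976 to 0.999972, over 16207 probes, with the scanner array of the opposite label, and at 0.978633 to 0.985846 with the one of its own label. Ackr4 itself did not stand well above background on any of the 4 arrays and checks no label. Levels below are log2 signals centred on each array's 75th percentile, and a probe counts as well above background on an array by the scanner's flags for 50% or more of its spots. Genotypes below follow the scanner files, and with the value table's labels every direction between genotypes would be the opposite. Which labels are right was not tested. The scanner values of each array, and with them the array on which a gene was lowest, do not depend on it. The size of a gap between experiments does not either, provided that the same set of labels is right in both experiments. The WT array of experiment 2 stood apart: 42.2% of its probes were well above background, against 49.5% to 54.9% on the other arrays, and its lowest signal well above background was 5.84 on the log2 scale, against 3.82 to 4.60.

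The response element can be read in the promoters of many of these genes. Of the 31 members with a promoter in RefSeq (GRCm38.p6, 250 bases before to 50 after the gene start), 18 (58.06%) held the core of the interferon-stimulated response element (GAAA, 2 bases of any kind, GAAA) on either strand, against 1079 (3.993%) of 27025 genes. TTCNNNGAA, the gamma-activated site, was found in 11 of the 31 (35.48%) and in 2582 genes (9.554%). A match is a run of letters and not a measured binding site. The following stretches, read along each gene's own strand, are examples from members that hold the response element core. Oasl2, Isg20 and Ifit2, described below, have a promoter here without it. Capitals mark that core or its reverse complement, with overlapping matches joined.
Ifit3 (chr19:34583353-34583436, plus strand): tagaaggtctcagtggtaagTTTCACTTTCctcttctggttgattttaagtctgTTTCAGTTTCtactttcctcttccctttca
Isg15 (chr4:156200855-156200916, minus strand): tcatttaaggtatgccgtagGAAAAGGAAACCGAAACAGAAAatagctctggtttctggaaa
Gbp2 (chr3:142620584-142620633, plus strand): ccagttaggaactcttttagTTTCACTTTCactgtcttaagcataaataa
Gbp3 (chr3:142559979-142560034, plus strand): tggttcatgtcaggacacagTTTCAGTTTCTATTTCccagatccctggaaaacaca
Irgm1 (chr11:48871421-48871470, minus strand): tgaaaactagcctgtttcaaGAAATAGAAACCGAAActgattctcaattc
Bst2 (chr8:71537567-71537622, minus strand): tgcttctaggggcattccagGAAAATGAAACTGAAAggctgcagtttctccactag
Counted from the gene start, the last base shown is -93 for Ifit3, -37 for Isg15, -30 for Gbp2, -10 for Gbp3, -1 for Irgm1 and -95 for Bst2. Ifit3 holds 2 matches apart from each other, and Isg15 holds 3 that overlap.

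The interferon response genes differed between the 2 experiments in their median direction. In experiment 2, 29 of the 38 tested members were lower on the Ackr4ko array than on the WT array, with a median log2 difference of -0.45, while the median of all tested genes was 0.23. In experiment 1, 23 of the 38 were higher on the Ackr4ko array, with a median of 0.15 against -0.04 for all tested genes. The combination of lower in experiment 2 with higher in experiment 1 was found in 17 members (44.7%) and in 11.6% of all tested genes. The reverse combination was found in 3 members (7.89%), Zbp1, Adar and Ifi35, and in 34.5% of all tested genes. For the rest the signs agreed: 12 members (31.6%) were lower on the Ackr4ko array in both, against 20.9% of all tested genes. Another 6 (15.8%) were higher in both, against 33.0%. The differences of the 2 experiments correlated at -0.18 over the members and at 0.34 over all tested genes. These shares move with the scaling of the arrays: after quantile normalization the all-gene median of experiment 2 was 0.04, the first combination held 20 members (52.6%) and 18.1% of all genes, and the member median was -0.47. With 1 array per genotype and experiment the gap between experiments has no residual degree of freedom, so it is described here and could not be tested.

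**Figure D1:**
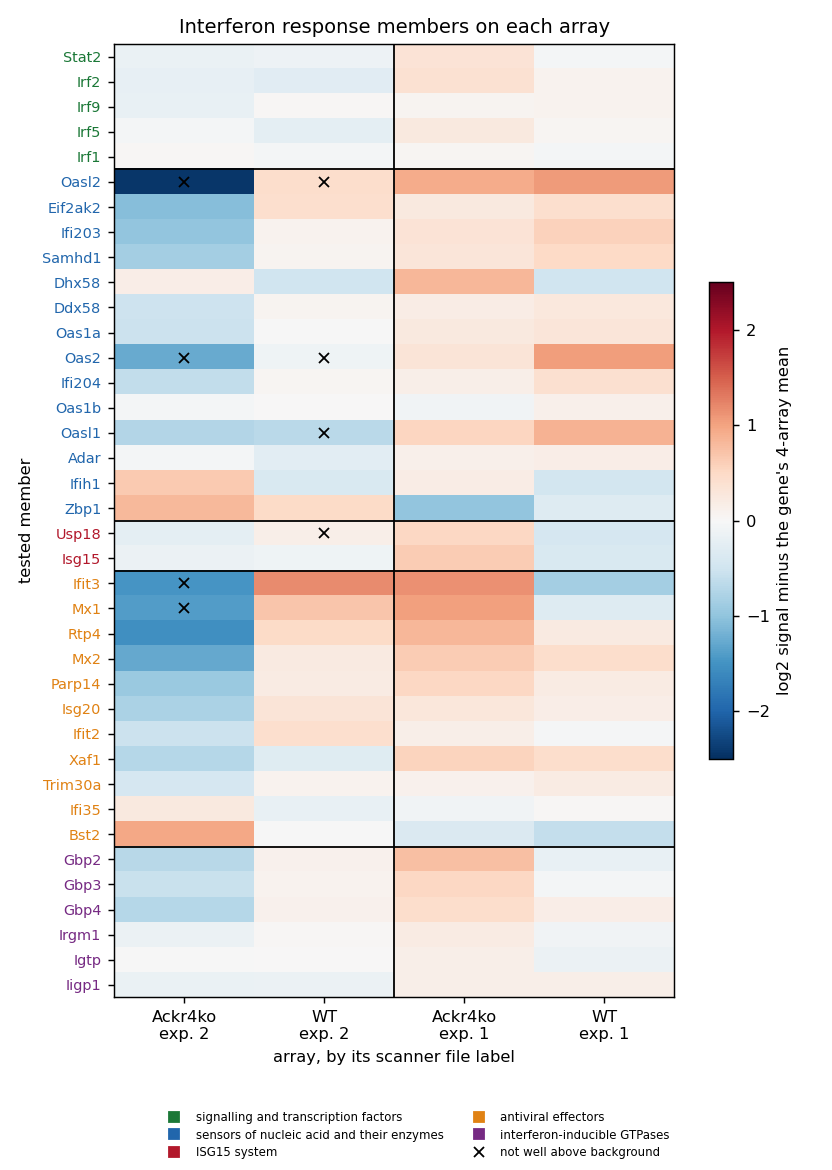
Log2 signal of the 38 tested members on the 4 arrays, as the difference from each gene's own mean over the arrays, with genes down the page by role and arrays across, experiment 2 to the left. Crosses mark values not well above background. Blue cells gather on the Ackr4ko array of experiment 2, which held the lowest value of 25 members.

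The Ackr4ko array of experiment 2 was the lowest of the 4 arrays for 25 of the 38 members (65.8%), against 24.0% of all tested genes. Members well above background on all 4 arrays showed nearly the same share, 20 of 32 (62.5%), against 24.17% of 12797 such genes. The highest value lay on the Ackr4ko array of experiment 1 for 18 of the 38 members, against 2657 of 15961 tested genes. For 11 members both held, so that the arrays labelled Ackr4ko lay at opposite ends of the range with the WT arrays between them. How often both held among all tested genes was not counted. A difference in experiment 2 that lay below that in experiment 1 by at least 1 log2 unit was found in 14 members (36.8%) and in 4.48% of all tested genes, and a gap of that size the other way in 0 members and 7.13% of all genes.

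**Figure D2:**
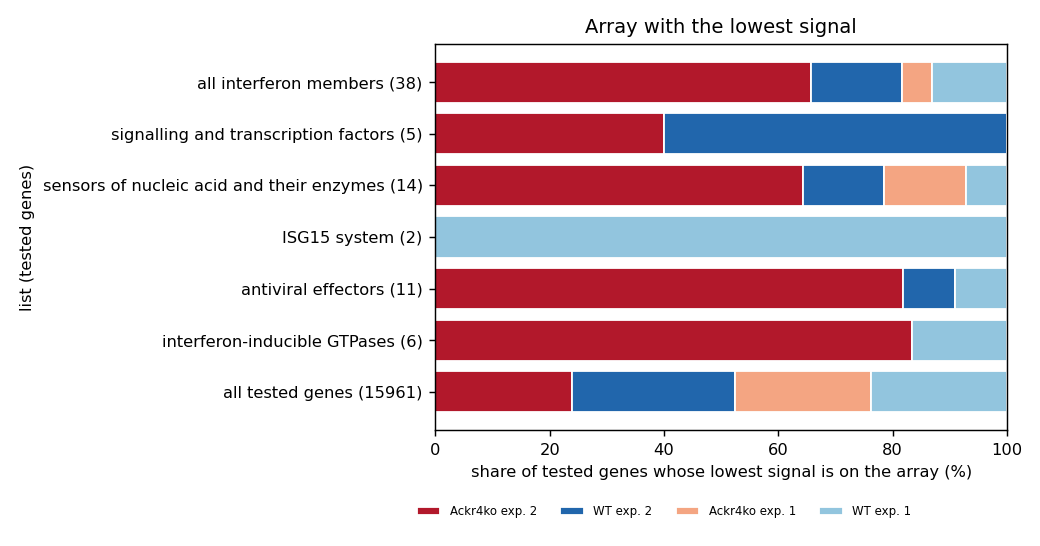
Share of tested genes (%) whose lowest signal lay on each array, for all 38 members, for the 5 roles and for all 15961 tested genes, with the number of genes in brackets. The dark red section, the Ackr4ko array of experiment 2, takes up 65.8% of the members' bar and 24.0% of the bottom bar.

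No member passed the test between genotypes over both experiments. The limma fit over all 4 arrays called 0 of the 38 members and 2 of 15961 genes (0.0125%) at an adjusted p under 0.05, with 2 members and 732 genes at an unadjusted p under 0.05. The members' adjusted p ranged upwards from 0.873. The median log2 difference was -0.16 over the members and 0.08 over all tested genes. A difference of at least 2-fold in 1 direction in both experiments was found in 0 members and in 1.79% of all tested genes. The Ackr4ko and WT arrays did not overlap for 5 members, against 29.0% of all tested genes. These were Irf1, Ifih1 and Dhx58, higher on both Ackr4ko arrays, and Eif2ak2 and Oas1b, lower on both. With the experiment as a replicate block, 532 genes (3.33%) passed and 1 member among them, Oasl2, at a log2 difference of -1.51 ± 0.35 (SE, limma adjusted p = 0.000957). That call rests in experiment 2 on values not well above background on either array, and under quantile normalization the blocked fit called 0 members and 0 genes.

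**Figure D3:**
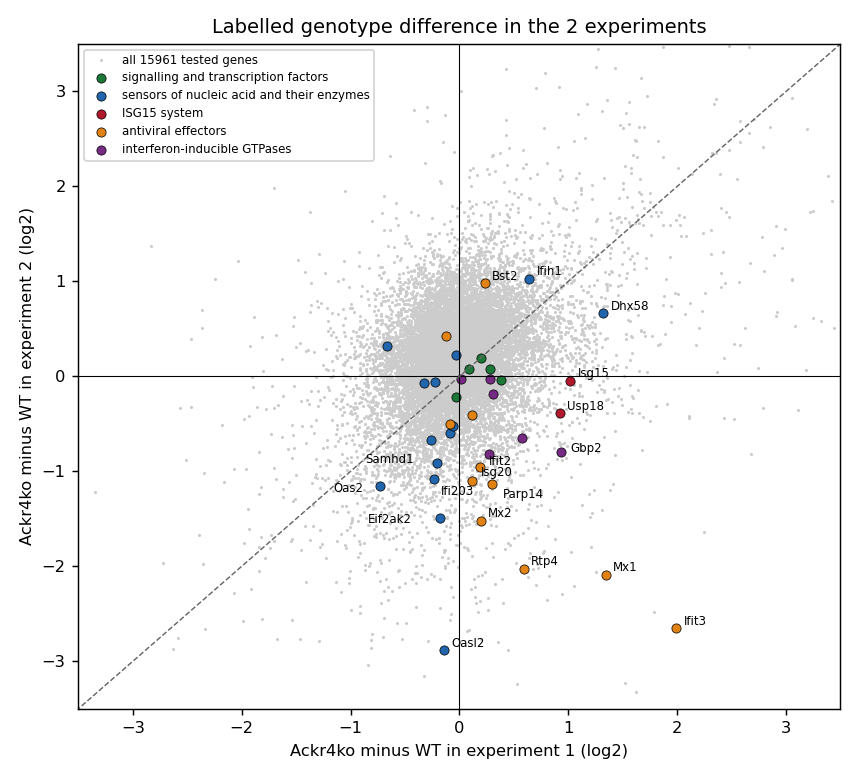
Log2 difference Ackr4ko minus WT of each tested gene in experiment 1 (x axis) and experiment 2 (y axis), with the members coloured by role, all tested genes in grey and the line of equal differences dashed. The lower right of the plot, below 0 on the y axis and above 0 on the x axis, holds 17 members, Ifit3, Mx1 and Rtp4 farthest out. Oasl2 and Oas2 were not well above background in experiment 2, and 39 genes lie outside the plotted range of 3.5.

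The antiviral effectors carried the largest gaps. Of their 11 tested members, 8 were lower on the Ackr4ko array in experiment 2 and higher on it in experiment 1, with median log2 differences of -1.10 and 0.20. Ifit3, whose protein binds with other IFIT proteins to foreign RNA, had a log2 signal of 4.86 on the Ackr4ko array and 7.51 on the WT array in experiment 2, and of 7.47 and 5.48 in experiment 1. Its probe lies on chromosome 19 at 34663105 to 34663164 (mm9). The Ackr4ko value of experiment 2 was not well above background, so the WT array was at least 6.28-fold brighter there, whereas in experiment 1 the Ackr4ko array was higher by 1.99 log2 units. Over both experiments its log2 difference was -0.33 ± 0.86 (SE, n = 2 arrays per genotype), well inside the spread between arrays of a genotype.

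Mx1, which encodes a dynamin-like GTPase, followed the same course. It read 5.08 on the Ackr4ko array and 7.17 on the WT array of experiment 2, and 7.50 and 6.16 in experiment 1. The first of these was not well above background, so that WT was at least 4.26-fold brighter in experiment 2. A difference of at least 2-fold in opposite directions in the experiments was found in 2 members, Ifit3 and Mx1 (5.26%), and in 0.219% of all tested genes.

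Rtp4, an interferon-induced transmembrane protein, was well above background on every array. Its log2 signal was 5.95 on the Ackr4ko array and 7.98 on the WT array in experiment 2, and 8.32 and 7.73 in experiment 1. Mx2, the second mouse Mx gene, read 6.71 (Ackr4ko) and 8.23 (WT) in experiment 2, and 8.63 and 8.43 in experiment 1. For both genes the Ackr4ko array of experiment 2 stood alone below the other 3 arrays.

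Parp14, a mono-ADP-ribosyltransferase, had a log2 signal of 10.43 on the Ackr4ko array and 11.57 on the WT array of experiment 2, and of 11.87 and 11.57 in experiment 1. Isg20, a 3'-5' exonuclease that degrades single-stranded RNA, read 10.95 (Ackr4ko) and 12.05 (WT) in experiment 2, and 12.02 and 11.90 in experiment 1. Ifit2, another IFIT protein, read 6.91 (Ackr4ko) and 7.86 (WT) in experiment 2, and 7.60 and 7.41 in experiment 1. All 3 were again lowest on the Ackr4ko array of experiment 2.

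A lower signal on the Ackr4ko array by at least 2-fold in experiment 2 was reached by 10 of the 38 members (26.3%), against 3.98% of all tested genes. They were 6 effectors (Ifit3, Mx1, Rtp4, Mx2, Parp14 and Isg20) and 4 sensors (Oasl2, Eif2ak2, Oas2 and Ifi203). Oasl2 and Oas2 were not well above background on either array of experiment 2, and Ifit3 and Mx1 not on the Ackr4ko array. Where the scanner software substituted a signal on every spot, the probe median was 3.35 on that Ackr4ko array and 4.65 on the WT array. Such undetected probes thus also read lower on the Ackr4ko array. Among the members well above background on all 4 arrays, 6 of 32 (18.75%) reached it, against 3.14% of such genes.

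**Figure D4:**
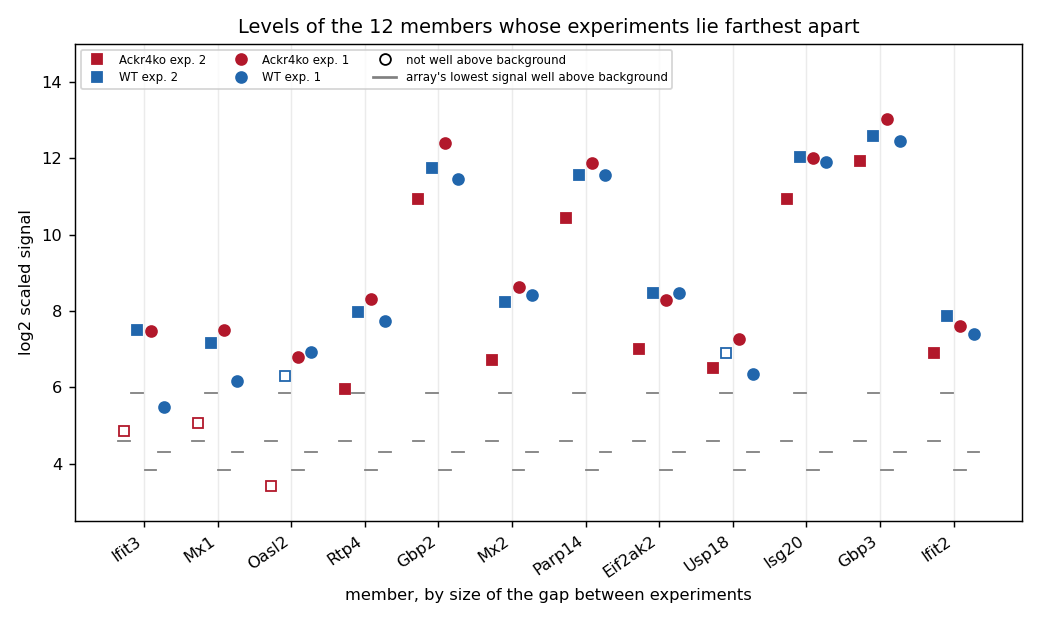
Log2 scaled signal on the 4 arrays of the 12 members whose genotype differences lie farthest apart between experiments, ordered by the size of that gap. Ackr4ko is red and WT blue, squares are experiment 2 and circles experiment 1, open symbols are not well above background, and grey dashes give each array's lowest signal well above background. The red square is the lowest of the 4 symbols for 11 of the 12 genes, all except Usp18.

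The other effectors were closer together or went another way. Xaf1, a proapoptotic protein, and Trim30a, a TRIM protein that restrains NF-κB signalling, had differences of -0.40 and -0.51 in experiment 2, and 0.12 and -0.09 in experiment 1. Bst2, or tetherin, which holds budding virus particles at the cell surface, read 12.68 on the Ackr4ko array and 11.70 on the WT array in experiment 2, and 11.35 and 11.12 in experiment 1. It was the one effector apart from Ifi35 whose highest value lay on the Ackr4ko array of experiment 2. Ifi35 had log2 differences of 0.42 in experiment 2 and -0.13 in experiment 1.

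The ISG15 system was separated by experiment as well. Isg15, the ubiquitin-like modifier, had a log2 signal of 10.83 on the Ackr4ko array and 10.88 on the WT array in experiment 2, and of 11.61 and 10.60 in experiment 1. Its second probe read 6.82 (Ackr4ko) and 6.72 (WT, not well above background) in experiment 2, and 7.69 and 6.36 in experiment 1. Usp18, the protease that removes ISG15 and dampens signalling at IFNAR2, read 6.51 (Ackr4ko) and 6.90 (WT, not well above background) in experiment 2, and 7.27 and 6.35 in experiment 1. Both genes were highest on the Ackr4ko array of experiment 1 and lowest on the WT array of experiment 1.

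All 6 interferon-inducible GTPases were lower on the Ackr4ko array in experiment 2 and higher on it in experiment 1, with medians of -0.42 and 0.29. Gbp2, a guanylate-binding protein that coats pathogen vacuoles, read 10.95 (Ackr4ko) and 11.74 (WT) in experiment 2, and 12.39 and 11.46 in experiment 1. Gbp3 read 11.94 and 12.59 in experiment 2, and 13.03 and 12.45 in experiment 1. Gbp4 had log2 differences of -0.81 in experiment 2 and 0.27 in experiment 1. In all 3 the WT arrays lay between the 2 Ackr4ko arrays.

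The IRG GTPases Irgm1, Igtp and Iigp1, which act on vacuoles of intracellular parasites, moved less. Their log2 differences lay between -0.19 and -0.02 in experiment 2 and between 0.01 and 0.31 in experiment 1. Irgm1 and Igtp hold the response element core as do Gbp2 and Gbp3, with the first match at base -30, -34, -59 and -45 from the gene start. Over the 15 tested members with a match the median gap was -0.49, and over the 11 tested members with a promoter but no match it was -0.19. For TTCNNNGAA the order was the other way, at -0.31 over 11 tested members with a match and -0.51 over 15 without. The 12 tested members with no promoter here, Mx1, Rtp4 and Mx2 among them, are in neither split.

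The sensors of nucleic acid and their enzymes differed from these groups in the direction of experiment 1. The Ackr4ko array of experiment 2 was the lowest for 9 of the 14 tested (64.3%), against 65.8% of all members. Their median gap was -0.45, against -0.50 over all members. Of the 14 tested, 10 were lower on the Ackr4ko array in both experiments, 2 were higher in both, and 0 were lower in experiment 2 while higher in experiment 1. Medians were -0.56 in experiment 2 and -0.19 in experiment 1. Eif2ak2, which encodes the kinase PKR that halts translation on double-stranded RNA, read 6.99 on the Ackr4ko array and 8.48 on the WT array of experiment 2, and 8.30 and 8.47 in experiment 1. Its log2 difference over both was -0.83 ± 0.45 (SE, limma unadjusted p = 0.0977), and with 1 array left out it ranged over -1.48 to -0.18.

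Dhx58 and Ifih1 were the 2 sensors that lay higher on both Ackr4ko arrays. Dhx58, which encodes LGP2, a regulator of MDA5, read 9.99 (Ackr4ko) and 9.33 (WT) in experiment 2, and 10.66 and 9.34 in experiment 1, a log2 difference of 0.99 ± 0.36 (SE, limma adjusted p = 0.873). Ifih1, which encodes MDA5, a sensor of long double-stranded RNA, read 10.60 (Ackr4ko) and 9.57 (WT) in experiment 2, and 10.12 and 9.48 in experiment 1, a log2 difference of 0.84 ± 0.34 (SE, limma adjusted p = 0.996). The arrays of the 2 genotypes did not overlap for either gene, and neither passed the test over all genes. Ddx58, which encodes RIG-I, had log2 differences of -0.60 in experiment 2 and -0.09 in experiment 1.

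In the oligoadenylate synthetase family, the probes that stand for Oas1b and Oas1a were well above background throughout, at 14.06 to 14.29 and 10.21 to 11.05. Oasl2, a ubiquitin-like OAS protein, read 3.42 on the Ackr4ko array and 6.30 on the WT array of experiment 2, neither well above background, and 6.79 and 6.92 in experiment 1. Oas2, which makes the 2'-5' oligoadenylates that activate RNase L, read 3.53 and 4.69 in experiment 2, again neither well above background, and 5.13 and 5.85 in experiment 1. Oasl1, which in mice restrains translation of Irf7, read 6.63 (Ackr4ko) and 6.71 (WT, not well above background) in experiment 2, and 7.92 and 8.24 in experiment 1.

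The remaining sensors included the deaminase Adar, the nucleotide hydrolase Samhd1 and the p200 family members Ifi203 and Ifi204. The probe that stands for Ifi203 read 12.77 (Ackr4ko) and 13.85 (WT) in experiment 2 and 14.10 and 14.33 in experiment 1. Samhd1 and Ifi204 had log2 differences of -0.91 and -0.67 in experiment 2, and -0.20 and -0.26 in experiment 1. Zbp1, a sensor of Z-form nucleic acid that can trigger necroptosis, was higher on the Ackr4ko array in experiment 2 and lower on it in experiment 1, at 12.80 (Ackr4ko) and 12.48 (WT) in experiment 2 and 11.01 and 11.68 in experiment 1.

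The signalling and transcription factors lay close together on the 4 arrays. Irf1, Irf2, Irf5, Irf9 and Stat2 were well above background on every array, at log2 signals of 10.53 to 13.33. Their log2 differences lay between -0.22 and 0.19 in experiment 2 and between -0.03 and 0.38 in experiment 1. Irf1, which responds to both interferon types, was between 12.97 and 13.06 on all 4 arrays. Stat2 and Irf9, which encode parts of the complex that binds the response element, had gaps between experiments of -0.42 and -0.19.

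The second comparison asked how the members differed between experiments with the genotypes averaged. Their mean was lower in experiment 2 than in experiment 1 for 33 of 38 members (86.8%), against 48.2% of all tested genes, with a median log2 difference of -0.39 against 0.02. That mean takes in the Ackr4ko array of experiment 2, the lowest array for most members. The members' median was -0.17 without that array and -0.67 without the WT array of experiment 2. It was -0.24 without the Ackr4ko array of experiment 1 and -0.54 without the WT array of experiment 1. The limma fit called 0 members and 0 genes (0%) at an adjusted p under 0.05, with 6 members and 1565 genes at an unadjusted p under 0.05. With genotype as the block it called 650 genes (4.07%) and 4 members, and with that block after quantile normalization 0 genes and 0 members. The probe that stands for Zbp1 rose in experiment 2, at a log2 difference of 1.30 ± 0.35 (SE, limma adjusted p = 0.00947). The other Zbp1 probe read 8.91 (Ackr4ko) and 9.64 (WT) in experiment 2, and 9.10 and 9.11 in experiment 1, so that the experiments overlapped on it. Oasl1 fell by 1.41, Oas2 fell by 1.38 and Oasl2 fell by 2.00 on the log2 scale (limma adjusted p = 0.00358, 0.00474 and 2.65e-06). For genes not well above background on either array of experiment 2, the bound is smaller: Oasl2 was at least 2.65-fold and Oas2 at least 1.21-fold brighter in experiment 1. Donors and the date in the labels differ between the experiments and cannot be told apart.

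Different probes of a gene did not always tell the same story. Of 11 members with at least 2 tested probes, 6 had genotype differences within 0.5 log2 units of each other, and 5 had the same sign on all probes in experiment 2. The 4 Ifi203 probes ranged over log2 differences of -1.74 to -0.67 in experiment 2, all lower on the Ackr4ko array. The -1.74 comes from a probe that was not well above background on either array of experiment 2, and the other 3 lay between -1.08 and -0.67. Those of Samhd1 lay at -0.91, 0.44 and 1.16, so that its direction depends on the probe. The 1.16 comes from a probe not well above background on the WT array of experiment 2, which bounds it at 1.47-fold or more. Adar, Ddx58, Zbp1, Isg15 and Oas1b also had probes of both signs in experiment 2, while both Isg20 probes agreed at -1.10 and -1.13. The positive values of Ddx58 (0.15) and Isg15 (0.11) likewise come from probes not well above background on that WT array.

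Xaf1 had the widest disagreement. Its main probe read 8.30 (Ackr4ko) and 8.71 (WT) in experiment 2, and 9.58 and 9.46 in experiment 1. The other probe, which lies 3' of it on chromosome 11, read 3.48 and 9.34 in experiment 2, and 4.63 and 5.09 in experiment 1, so that the WT array of experiment 2 was at least 26.8-fold brighter than the Ackr4ko array beside it. On that WT array 100% of its spots were well above background, against 0% to 50% on the others. Probes that led the other 3 arrays by at least 3 log2 units on that array numbered 8 in all, and this was the one member among them. The first 30 of the 60 bases of both probes are shown, since a reader may want to place them in the transcript.
Xaf1 main probe (chr11:72122169-72122228, mm9, plus strand): ccttcaacccttgcatttatggactctgga
Xaf1 other probe (chr11:72127175-72127234, mm9, plus strand): tctgtatttctggaccacagtcactcattt

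**Figure D5:**
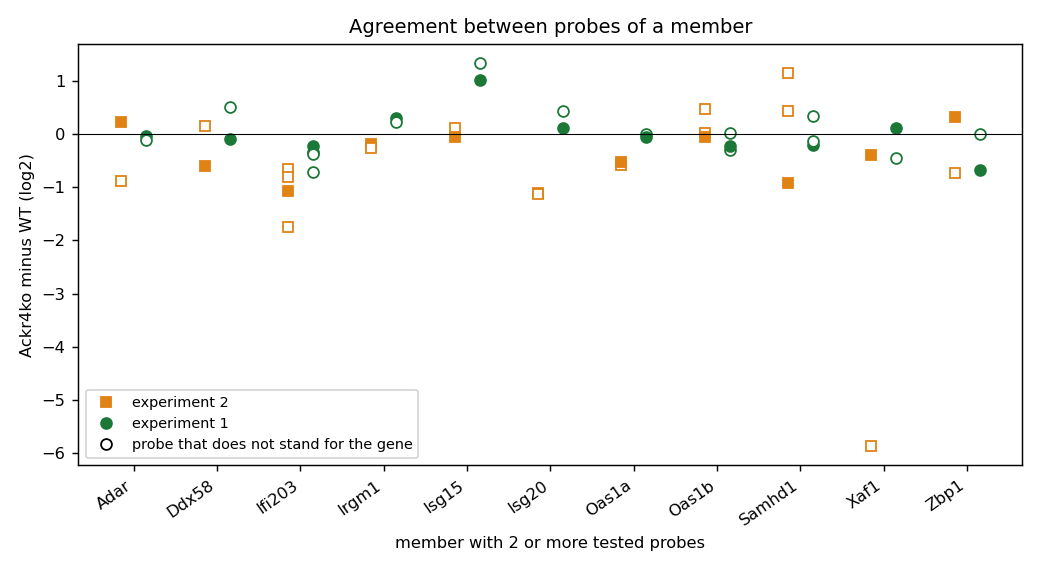
Log2 difference Ackr4ko minus WT of every tested probe of the 11 members with 2 or more tested probes, with experiment 2 as squares and experiment 1 as circles, filled for the probe that stands for the gene. The other Xaf1 probe lies at -5.87 in experiment 2, far from the rest, and Samhd1 has probes on both sides of 0.

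Of the 43 members, 5 were too dim to be tested. Irf7, the factor that amplifies interferon production, Rsad2, which encodes viperin, and Ifi44 did not stand well above background on any array. Ifit1 and Oas3 were well above background only on the Ackr4ko array of experiment 1. Ifit1, which binds RNA lacking 2'-O-methylated caps, read 5.73 on that array and 3.53 on the WT array beside it, at least 2.66-fold brighter. It read 3.36 (Ackr4ko) and 4.67 (WT) in experiment 2.

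Other genes of the pathway were counted from lists. Of 22 listed interferon genes and receptors, 14 were tested, and 0 were called between genotypes, with or without the block. Ifnb1, Ifne, Ifna4, Ifna11 and Ifna13 were well above background on 0 arrays. Ifna1, Ifna2, Ifna5, Ifna12 and Ifna14 were dim, but well above background on every array except the WT array of experiment 2. Their log2 differences lay between 0.34 and 0.84 in experiment 2, against that WT array, and between -0.28 and 0.12 in experiment 1. Ifng, which encodes interferon gamma, read 9.08 (Ackr4ko) and 7.72 (WT) in experiment 2, and 7.22 and 6.98 in experiment 1, and was called between experiments with genotype as the block (log2 difference 1.30, limma adjusted p = 0.00906), a call lost after quantile normalization. Ifnk and Ifng had the largest log2 differences between genotypes in that list, -0.74 and 0.80, and Ifnk was not well above background on either array of experiment 2. Ifnar1 and Ifnar2, which form the type I receptor and are named for that role after their values were seen, had log2 differences of -0.25 and 0.53 in experiment 2, and 0.04 and 0.13 in experiment 1.

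Of 24 tested genes that act upstream or regulate the response, 0 were called without a block and 2 with it. Cgas, the cytosolic DNA sensor that makes cyclic GMP-AMP, read 9.56 on the Ackr4ko array and 6.67 on the WT array in experiment 2, and 8.57 and 7.005 in experiment 1 (log2 difference 2.23, limma adjusted p = 0.237 without and 3.67e-08 with the replicate block). Socs3, an inhibitor of JAK signalling, read 10.40 (Ackr4ko) and 8.20 (WT) in experiment 2, and 9.67 and 7.67 in experiment 1 (log2 difference 2.10, limma adjusted p = 0.237 without and 2.98e-07 with the block). Both were at least 2-fold higher on the Ackr4ko array of each experiment, as 0 members were.

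A further list of 46 interferon-stimulated genes held 40 tested genes. Their median log2 difference was 0.14 in experiment 2 and 0.03 in experiment 1, 14 were lowest on the Ackr4ko array of experiment 2 (35%), and 5 had a gap of at least 1 log2 unit in the members' direction (12.5%). Calls without a block numbered 0, and 2 with it: Ccl5, a chemokine for T cells and monocytes, at a log2 difference of 2.63 (limma adjusted p = 1.54e-11 with the block), and Ifitm3, which blocks viral entry (7.29e-07). Ifitm3 was not well above background on either WT array, so that it was at least 3.94-fold brighter on the Ackr4ko arrays. Ccl5 and Cgas were not well above background on the WT array of experiment 2, which bounds them there at 6.19-fold and 7.42-fold or more. After quantile normalization the blocked fit called none of these genes, as its count over all genes was 0.

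Markers of other cells were measured beside these results. All 8 B cell markers were well above background on every array. Of 8 listed markers of plasmacytoid dendritic cells, known for making interferon, 5 were well above background on some array and Clec12a, Klk1 and Runx2 on none. Their summed linear signal was 86775 (Ackr4ko) and 81033 (WT) in experiment 2, and 79876 and 91562 in experiment 1. Conventional dendritic cell markers summed to 8703 and 4800 in experiment 2, and 11052 and 4546 in experiment 1, with Itgax, Xcr1, Clec9a and Cd209a below background on all arrays. NK cell markers summed to 6133 and 3212 in experiment 2, and 2451 and 3007 in experiment 1, with Ncr1, Klrb1c, Gzma, Gzmb and Eomes below background throughout. T cell markers summed to 5655 and 7527 in experiment 2, and 4790 and 6148 in experiment 1, with Cd8a below background on all arrays. Macrophage markers summed to 36098 and 57429 in experiment 2, and 45150 and 53567 in experiment 1, with Lyz2 and C1qa below background on all. Single genes carry several of these sums. Siglech makes up most of the plasmacytoid sum, Flt3 most of the conventional dendritic cell sum and Nkg7 most of the NK cell sum. Mpeg1 is the largest part of the macrophage sum. Flt3 had a log2 signal of 12.97 (Ackr4ko) and 12.13 (WT) in experiment 2, and of 13.38 and 12.08 in experiment 1. With the replicate block, 4 markers were called between genotypes: Cox6a2 (plasmacytoid, limma adjusted p = 2.05e-14), Batf3 and Fscn1 (conventional dendritic cell, 1.65e-12 and 9.96e-06), all higher on Ackr4ko, and Cd5 (T cell, 0.0324), lower on Ackr4ko. The rest of each list was not called. Log2 differences were -0.24 to -0.01 for Siglech, Tcf4 and Pacsin1, and 1.00 and 1.07 for Zbtb46 and Flt3. Among T cell markers, Cd3e, Cd3d, Cd4 and Lat lay between 0.01 and 0.61, and Cd3g at -0.47. Cox6a2 read 6.66 (Ackr4ko) and 4.65 (WT, not well above background) in experiment 2, and 9.58 and 5.70 in experiment 1. Batf3 and Fscn1 were not well above background on either WT array, and were at least 2.59-fold and 2.40-fold brighter on Ackr4ko. Without the block 0 markers were called, and none with the block after quantile normalization. The part of these cells in the members' values was not tested, and in bulk RNA fewer cells of a type and less RNA per cell cannot be told apart.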

How the data were processed

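Each array took 50 ng of total RNA labelled with Cy3, per the labels' protocols. The deposited intensity is the processed signal per spot from Agilent Feature Extraction (version 10.7.3.1 per the submitters' processing notes), which also flags outliers and signal well above background. Probe positions refer to mm9, per the file headers. The authors' deposited value table gives 1 intensity per probe. How it was normalized is not given in the sources used here, and it served as an alternative.

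Processed signals were put on the log2 scale and centred on the array's 75th percentile, and the mean of the 4 log2 percentiles (9.88) was added back. Control and outlier spots were dropped before the 4 spots of each probe were averaged. Saturated spots numbered 0. Testing needed 50% or more of a probe's spots to be well above background on 2 or more arrays (20862 of 39429 probes), and each gene took its brightest such probe. Probe names were updated through RefSeq (GRCm38.p6). Where a group was not well above background, the fold is a lower bound: the brighter mean against the higher of the dim probe's signal and its array's lowest signal well above background. Promoter sequences are RefSeq's. Of 43 members, 31 matched.

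Tests were two-sided moderated fits in limma 3.58.1 (R 4.3.3), with no block and p adjusted by Benjamini-Hochberg over all 15961 genes at a threshold of 0.05. The labels give samples of an experiment the same date, so arrays are paired, and their deviations from the genotype means had a correlation of 0.42. A replicate block for the experiment leaves each gene 1 residual degree of freedom, and all genes then share 1 variance. With 2 arrays per group an exact permutation test cannot give a p below 0.333. The number of arrays limits the precision, and the labels do not say how many mice an array holds.

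Members, gene lists and tests were chosen with earlier results of these data known. Values on every array are given for the 12 members with the largest gaps between experiments and for members called in any fit. Isg15, Bst2, Dhx58, Ifih1, Ifi203, Ifit1 and Xaf1 were added after their values were seen. Other pathway genes were named where they were called or had the 2 largest differences of their list. Ifnb1, Ifne, the Ifna genes, Ifnar1 and Ifnar2 were added for their roles. Alternatives covered scaling, background correction, filters, the probe that stands for a gene, the value table, leaving out each array and the block.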

Additional observations from a re-analysis of the deposited data

Results flagged for a closer look

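The difference between Ackr4ko and WT ran in opposite directions in the 2 experiments for Ifit3 and Mx1, each by at least 2-fold. The log2 difference in experiment 2 minus that in experiment 1 was -4.64 for Ifit3 and -3.43 for Mx1. Both signals on the Ackr4ko array of experiment 2 were not well above background, so these gaps rest on a dim value. The median of this gap over the 38 tested members was -0.50, while it was 0.24 over all tested genes. None of these gaps was tested, since each experiment holds 1 array per genotype.

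The Xaf1 probe that does not stand for the gene had a log2 signal of 9.34 on the WT array of experiment 2 and 3.48 on the Ackr4ko array, against 4.63 (Ackr4ko) and 5.09 (WT) in experiment 1. That WT array also had the most spots marked as outliers, 6.24%, against 1.79% to 2.12% on the others, and 201 of its probes led the other arrays by at least 2 log2 units, against 4 to 48. Whether these move the Xaf1 probe was not tested.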

How the results depend on the processing

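The number of genes called between genotypes was 2 in the reported fit and 1 under quantile normalization, 19 under normexp background correction, 0 with probes well above background on all 4 arrays, 0 with no filter, 1 in the value table, 0 with a common floor for dim values (chosen after seeing the data) and 1 to 122 with 1 array left out. Members called numbered 0 in each of these, and the cause of the other counts was not tested. With the replicate block (the paired fit) 532 genes and 1 member, Oasl2 (-1.51), were called, and with the block and quantile normalization 0 genes and 0 members, between genotypes and between experiments. Between experiments the block gave 650 genes and 4 members, and leaving out 1 array gave 0 to 200 genes and 0 to 1 member, the 1 without the Ackr4ko array of experiment 1. Members higher on Ackr4ko in both experiments numbered 3 under quantile normalization and 12 in the value table, where 4 were lower in both, against 6 and 12 as reported. The median member difference was -0.61 to 0.19 with 1 array left out, positive only without the Ackr4ko array of experiment 2.

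In the authors' value table, whose columns carry the opposite genotype labels, the median was 0.31 and that of experiment 2 was 0.59. All 15 named members reversed there: Zbp1 0.32, Oas2 0.56, Oasl1 0.34, Oasl2 1.52, Ifit3 0.45, Mx1 0.44, Rtp4 0.81, Gbp2 -0.0122, Mx2 0.78, Parp14 0.49, Eif2ak2 0.80, Usp18 -0.18, Isg20 0.57, Gbp3 0.11 and Ifit2 0.46. With the common floor Mx1 reversed to 0.00946, and Oasl2 was -0.30 (-0.43 under normexp), Oas2 -0.00591 and Ifit3 -0.0199, against -1.51, -0.94 and -0.33 as reported. With 1 array left out, differences ranged over -1.07 to 0.72 for Zbp1, -0.96 to 0.57 for Oasl1, -3.20 to 0.17 for Oasl2, -1.63 to 0.98 for Ifit3, -1.58 to 0.84 for Mx1, -1.90 to 0.46 for Rtp4, -0.65 to 0.79 for Gbp2, -1.62 to 0.30 for Mx2, -1.14 to 0.30 for Parp14, -0.11 to 0.64 for Usp18, -1.03 to 0.0444 for Isg20, -0.58 to 0.51 for Gbp3, -1.48 to -0.18 for Eif2ak2, -1.74 to -0.15 for Oas2 and -0.73 to -0.04 for Ifit2. Of the 15, 9 reversed without the Ackr4ko array of experiment 2. Under quantile and median normalization and normexp, the member medians kept their signs in both experiments (-0.31 to -0.60 in experiment 2, 0.12 to 0.17 in experiment 1), while the all-gene median of experiment 2 moved between 0.04 and 0.23. The share of all genes lower on Ackr4ko in experiment 2 was 32.5% as reported and 46.2% after quantile normalization. Depth of signal limits Oas2, Oasl2, Ifit3, Mx1 and the 5 untested members, which lie at or under background on 2 or more arrays or on the Ackr4ko array of experiment 2.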
